A study of Mus musculus with 4 samples.

Results

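Teneurins, latrophilins and fibronectin leucine-rich transmembrane (Flrt) proteins are cell surface proteins that bind one another across cell contacts. The group studied here was the set of rows of the deposited embryonic day 15 (E15) table whose symbol was Tenm1, Tenm2, Tenm3, Tenm4, Adgrl1, Adgrl2, Adgrl3, Flrt1, Flrt2 or Flrt3. All 10 were present among 13289 genes, and all 10 passed the filter on low counts. The table holds RNA-seq of polyadenylated RNA from fresh mouse cerebral cortex at E15, with 2 control libraries, titled WT, and 2 libraries of Lhx2 cKO, a conditional knockout of the LIM-homeodomain gene Lhx2. The driver line, the allele, the strain, the sex and the number of embryos behind a library are not given in the sources used here. The single comparison the labels imply is Lhx2 cKO against control. Nothing states that replicates came from separate embryos, so the spread between libraries may be technical. The p-values rest mostly on that spread pooled over all genes, not on the spread of the gene tested.

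As background, teneurins are large single-pass proteins on neurons with an extracellular barrel that binds latrophilins, which are adhesion G protein-coupled receptors. Flrt proteins carry leucine-rich repeats that bind latrophilins at one surface and Unc5 receptors, which also respond to netrins, at another. In the developing cortex, Flrt proteins are known to act in neuron migration through latrophilins, teneurins and Unc5d.

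The Flrt family changed in opposite directions within Lhx2 cKO cortex, while the latrophilins did not pass the test. Flrt1 fell to 24.1% of its control level and Flrt3 to 56.2%, while Flrt2 rose to 212%. Of the 4 teneurins, Tenm4 fell to 74.1% of control, and Tenm1, Tenm2 and Tenm3 did not pass. In all, 1 of the 10 genes was called higher and 3 were called lower, where a gene is called at an adjusted p under 0.05 in edgeR's quasi-likelihood test over 13288 genes. Over all genes tested, 20.8% were called, 11.6% higher and 9.17% lower. The median absolute log2 fold change was 0.20 over the 10 genes and 0.19 over all genes tested, so the typical size of change in the group was near that of the table. 

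Total counts ranged from 22294237 to 24609627 per library, so that 3 counts correspond to 0.122 to 0.135 CPM (counts per 1000000 counts of a library); such a floor covers counting error only. Lhx2 itself was at 316 and 287 CPM in control and 239 and 247 CPM in Lhx2 cKO, so 80.7% of its transcript level remained. In edgeR its adjusted p was 0.0191 at -0.31 on the log2 scale (SE 0.098). Without control 1 its adjusted p was 0.176, without Lhx2 cKO 1 it was 0.102 and without Lhx2 cKO 2 it was 0.0538. Which part of Lhx2 is deleted is not given in the sources used here, and reads outside that part do not check the deletion. Both Xist and 4 Y-linked genes were counted in every library, with Xist at 1598 to 1962 CPM and Ddx3y at 22.7 to 29.1 CPM. Neuron markers of the cortex were abundant in every library, with a summed level of 4417 to 4808 CPM over 6 genes.

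**Figure D1:**
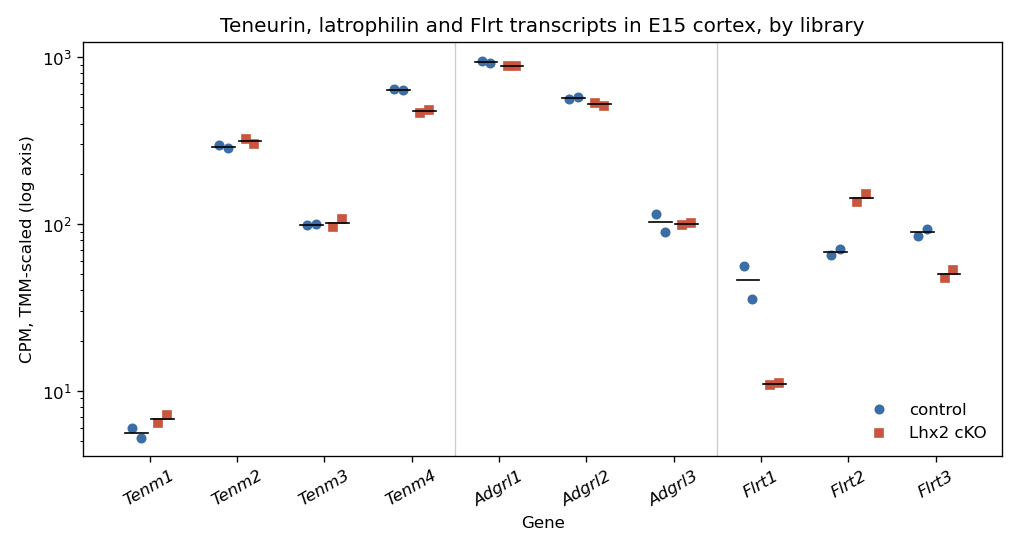
Level of each of the 10 genes in each library, in CPM scaled with TMM on a log axis; circles are control libraries, squares are Lhx2 cKO libraries and bars are group means of 2 libraries. Flrt1, Flrt3 and Tenm4 lie lower in both Lhx2 cKO libraries, Flrt2 lies higher in both, and the latrophilins lie close together.

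Levels per gene length, in CPM per kilobase of the deposited gene length, set the order of the genes. In control, Adgrl1 was highest at 109 ± 2.40 CPM per kilobase (SD, n = 2), followed by Adgrl2 at 39.97 ± 0.923, Tenm4 at 30.5 ± 0.186, Tenm2 at 25.4 ± 0.586 and Flrt3 at 18.4 ± 1.27. Tenm3 followed at 9.66 ± 0.0793, Flrt2 at 8.77 ± 0.504, Flrt1 at 7.82 ± 2.45 and Adgrl3 at 5.77 ± 0.988, and Tenm1 was lowest at 0.316 ± 0.0294 CPM per kilobase. The libraries of Flrt2 and Flrt1 overlapped in this order, as did those of Flrt1 and Adgrl3, and all other neighbours were separate. In Lhx2 cKO the order began again with Adgrl1 and Adgrl2, but Tenm2 lay above Tenm4 and Flrt2 above Flrt3. In that group only the neighbours Flrt3 and Tenm3 overlapped, at 10.3 ± 0.737 and 9.94 ± 0.769 CPM per kilobase.

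Flrt1 had the largest change of the 10 genes. With Flrt3 it is known from migrating neurons of the cortex. Flrt1 had 1360 and 893 counts in control and 248 and 257 counts in Lhx2 cKO. These are 56.1 and 35.7 CPM in control against 10.9 and 11.2 CPM in Lhx2 cKO. The control libraries differed from each other, and both lay well above the Lhx2 cKO libraries. The log2 fold change was -2.05 (SE 0.146, 95% interval -2.35 to -1.76, adjusted p 1.77e-14 in edgeR), which is a 4.16-fold difference of the means. Among the 1218 genes called lower it ranked 18 by fold change. Without control 1 the log2 fold change was -1.71, and without control 2 it was -2.34. The value without control 1 lay outside the 95% interval, which rests mostly on variance pooled over genes.

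Flrt3, whose protein binds both latrophilins and Unc5 receptors and is also a partner of Robo1, fell as well. It had 2060 and 2341 counts in control and 1085 and 1212 counts in Lhx2 cKO. In CPM it was at 84.95 and 93.7 in control and at 47.7 and 52.8 in Lhx2 cKO, and the groups did not overlap. The log2 fold change was -0.83 (SE 0.101, 95% interval -1.03 to -0.63, adjusted p 2.67e-08 in edgeR). Flrt2, known as a ligand of Unc5d, went the other way. It had 1575 and 1761 counts in control and 3077 and 3496 counts in Lhx2 cKO. Its levels were 64.95 and 70.5 CPM in control and 135 and 152 CPM in Lhx2 cKO, so both Lhx2 cKO libraries lay above both control libraries. The log2 fold change was 1.09 (SE 0.098, 95% interval 0.89 to 1.28, adjusted p 1.70e-11 in edgeR). Groups of libraries did not overlap for 59.3% of all genes tested and for 8 of these 10.

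Flrt2 rose and Flrt3 fell, and both have entries in the RefSeq promoter table, so the bases before their start sites are shown. Each stretch holds the 250 bases upstream of the start in the RefSeq promoter table (build GRCm38.p6), read 5′ to 3′ on the strand of the gene. The deposited counts come from build mm39 per the submitters' processing notes, and no coordinates were converted. The Flrt2 stretch is chr12:95691976-95692225 on the plus strand and the Flrt3 stretch is chr2:140671477-140671726 on the minus strand. Capitals mark CAGATG, an E-box form bound by proneural factors, found on either strand; the letters CATCTG are its reverse complement.
Flrt2: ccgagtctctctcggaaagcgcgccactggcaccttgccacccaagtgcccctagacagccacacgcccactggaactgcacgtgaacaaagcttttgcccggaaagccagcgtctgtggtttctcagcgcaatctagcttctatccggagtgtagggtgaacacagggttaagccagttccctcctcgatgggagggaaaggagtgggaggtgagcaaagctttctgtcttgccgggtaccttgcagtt
Flrt3: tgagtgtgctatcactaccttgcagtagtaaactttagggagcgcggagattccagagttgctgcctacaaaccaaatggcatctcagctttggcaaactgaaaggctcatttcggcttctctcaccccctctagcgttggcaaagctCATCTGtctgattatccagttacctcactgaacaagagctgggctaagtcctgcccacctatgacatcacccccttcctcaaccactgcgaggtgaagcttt
Of the 10 genes, 9 had entries in that table, with 12 stretches, and Flrt1 was not among them. The motif CAGATG was found 1 time in the Flrt3 stretch and 0 times in that of Flrt2. It was also found 1 time in the third stretch of Adgrl3, a gene that was not called, and in no other stretch of the 10 genes. It occurs in 14.4% of all 32851 stretches of this length. The core letters bound by LIM-homeodomain factors, searched as TAATTA and TAATTG on both strands, were found 0 times in both stretches. TAATTA occurs in 4.84% of all stretches and was found 1 time before Tenm3, and TAATTG occurs in 7.17% and was found 1 time in the third stretch of Adgrl3. These matches describe letters in a short window and say nothing of binding. GC content was 57.2% before Flrt2 and 50% before Flrt3.

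The sum of the Flrt genes differed less between groups than each gene did, and its direction depended on the scale. Summed over the 3 genes, Flrt transcripts were at 35.4 and 34.5 CPM per kilobase in control and at 29.2 and 32.5 in Lhx2 cKO, lower in both Lhx2 cKO libraries. Without the division by length, the sum was 206 and 199.9 CPM in control against 193.8 and 216.1 CPM in Lhx2 cKO, and the groups overlapped. The share of Flrt2 in this sum was 23.7% and 26.5% in control against 60% and 60.7% in Lhx2 cKO. Flrt3 made up 49.3% and 55.9% of the sum in control against 33.6% and 33.4% in Lhx2 cKO. Flrt1 made up 26.96% and 17.7% in control against 6.36% and 5.87% in Lhx2 cKO. Flrt3 was thus the most abundant Flrt transcript per length in both control libraries, and Flrt2 in both Lhx2 cKO libraries. The ratio of Flrt2 to Flrt3 per length was 0.482 and 0.474 in control against 1.79 and 1.82 in Lhx2 cKO. The ratio of Flrt2 to Flrt1 was 0.881 and 1.5 in control against 9.44 and 10.3 in Lhx2 cKO. These shares and ratios restate the levels above within each library and were not tested separately.

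**Figure D2:**
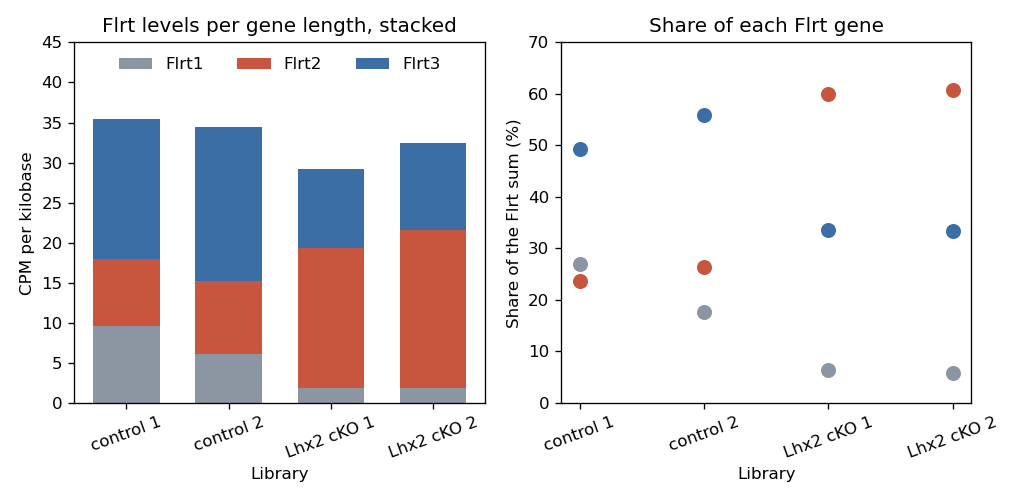
Left, levels of Flrt1, Flrt2 and Flrt3 in CPM per kilobase of gene length, stacked per library; right, the share of each gene in that sum in percent. The sum lies between 29.2 and 35.4 in all libraries, while the Flrt2 share is 23.7% and 26.5% in control against 60% and 60.7% in Lhx2 cKO.

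Flrt1 and Flrt3 lie inside introns of other genes in the GENCODE M21 annotation. Flrt1 sits within Macrod1 and Flrt3 within Macrod2, each on the opposite strand of its host, and the pairs share 0 exon bases. Macrod1 and Macrod2 encode enzymes that remove ADP-ribose from proteins. Both host genes rose while the Flrt genes inside them fell. Macrod1 was at 6.76 and 6.12 CPM in control and 9.76 and 9.79 CPM in Lhx2 cKO (log2 fold change 0.60, adjusted p 0.0185 in edgeR). Macrod2 was at 32.8 and 35.2 CPM in control and 57.4 and 56.9 CPM in Lhx2 cKO (log2 fold change 0.75, adjusted p 3.48e-07 in edgeR). In M21, Flrt1, Flrt2, Flrt3 and Tenm2 share exon bases with no other gene, and the other 6 members share some with genes on the opposite strand, none of which is a row analysed here. Whether the counting used strand is not given in the sources used here, so for those 6 genes reads of both strands may not have been told apart.

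Among the teneurins, Tenm4 was the most abundant per length in control. It had 15594 and 15935 counts in control and 10593 and 11097 counts in Lhx2 cKO. Its levels were 643 and 638 CPM in control and 466 and 483 CPM in Lhx2 cKO, and the groups did not overlap. The log2 fold change was -0.43 (SE 0.103, 95% interval -0.64 to -0.22, adjusted p 0.00174 in edgeR). M21 places up to 858 bases of a Tenm4 exon opposite an exon of C230038L03Rik, so this value is uncertain if strand was not used. Tenm2 was at 296 and 286 CPM in control and 324 and 302 CPM in Lhx2 cKO, both higher than both controls but with a log2 fold change of 0.10 that did not pass the test (95% interval -0.09 to 0.30, adjusted p 0.5 in edgeR). The teneurin sum was 66.3 and 65.3 CPM per kilobase in control against 60.1 and 60.2 in Lhx2 cKO. Within that sum Tenm4 made up 46.1% and 46.4% in control against 36.8% and 38.2% in Lhx2 cKO, and Tenm2 made up 38.9% and 38.2% in control against 46.9% and 43.8% in Lhx2 cKO.

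Tenm3, a teneurin known for matching connections in the visual system and hippocampus, was at 98.4 and 99.5 CPM in control and 96.2 and 107 CPM in Lhx2 cKO, and its groups overlapped. Its log2 fold change of 0.04 had a 95% interval of -0.15 to 0.23 (adjusted p 0.816 in edgeR), and without Lhx2 cKO 2 the estimate was -0.05. The X-linked Tenm1 was the scarcest of the 10 genes, with 145 and 131 counts in control against 147 and 164 in Lhx2 cKO. Its level was 5.98 and 5.24 CPM in control and 6.46 and 7.14 CPM in Lhx2 cKO, and the groups did not overlap. The log2 fold change of 0.28 did not pass the test (adjusted p 0.395 in edgeR), and its 95% interval of -0.15 to 0.71 was the widest of the 10 genes. For comparison, the X-linked Xist had a log2 fold change of -0.28 (adjusted p 0.0803), and of the 4 Y-linked genes 1 was called: Eif2s3y was higher at 0.41 (adjusted p 0.00192), while Ddx3y, Kdm5d and Uty were not called, at 0.16, 0.33 and 0.07 (adjusted p 0.38, 0.0572 and 0.88 in edgeR). The part of the sex of the embryos in the value of Tenm1 was not tested.

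The latrophilins, receptors for teneurins and Flrt proteins, had 0 of 3 genes called in edgeR, as in DESeq2 and limma-voom. Their unadjusted p-values in edgeR were 0.476 for Adgrl1, 0.269 for Adgrl2 and 0.744 for Adgrl3. Adgrl1 was at 946 and 917 CPM in control and 883 and 882 CPM in Lhx2 cKO. Its log2 fold change was -0.08, with a 95% interval of -0.30 to 0.14 (adjusted p 0.672 in edgeR). Adgrl2 was at 558 and 577 CPM in control and 534 and 513 CPM in Lhx2 cKO, a log2 fold change of -0.12 with a 95% interval of -0.32 to 0.09 (adjusted p 0.473). For both genes the Lhx2 cKO libraries lay below the control libraries by a margin that did not pass the test. Adgrl3 was at 115 and 89.98 CPM in control and 98.1 and 102 CPM in Lhx2 cKO, so the groups overlapped. Its log2 fold change was -0.03 (95% interval -0.24 to 0.17, adjusted p 0.858), and without control 1 it was 0.14. The intervals leave room for changes as large as their bounds, so equal levels are not shown. The composition of the family varied little, with Adgrl1 at 70.03% to 71.0% of the latrophilin sum per length in every library.

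Partner genes of the 3 families were taken from lists of 15 genes, of which 4 were called higher and 4 lower. The median log2 fold change over the 15 was 0.07, and 53.3% were called, against 20.8% of all genes. The lists were chosen with earlier results of these data known, so this share describes the lists and does not test them. Without Lhx2 cKO 1, 5 of the 15 were called. Of 7 Flrt partners, 3 were called higher and 3 lower. The Unc5 receptors split: Unc5a and Unc5c rose, and Unc5b and Unc5d fell.

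Unc5d, the Unc5 receptor known from multipolar neurons of the subventricular zone, was at 161 and 168 CPM in control and 125 and 133 CPM in Lhx2 cKO. Its log2 fold change was -0.35 (SE 0.094, adjusted p 0.00529 in edgeR), and without Lhx2 cKO 1 the adjusted p was 0.061. Unc5b, a netrin receptor also known from blood vessels, was at 37.5 and 33.9 CPM in control and 25.9 and 28.8 CPM in Lhx2 cKO. Its log2 fold change of -0.39 (adjusted p 0.0111) lost its call without control 1 (adjusted p 0.131) and without Lhx2 cKO 1 (adjusted p 0.108). In the other direction, Unc5a was at 102 and 89.7 CPM in control and 143 and 161 CPM in Lhx2 cKO (log2 fold change 0.66, adjusted p 1.75e-06). Unc5c was low in control at 5.86 and 6.24 CPM and stood at 12.9 and 16.1 CPM in Lhx2 cKO (log2 fold change 1.26, adjusted p 7.02e-07). The Lhx2 cKO libraries of Unc5a and Unc5c lay above both control libraries. Per length, Unc5a was the most abundant Unc5 transcript in both groups, at 23.04 CPM per kilobase in control and 36.4 in Lhx2 cKO, and Unc5d was at 17.8 and 13.96. The per-length ratio of Flrt2 to Unc5d was 0.483 and 0.501 in control against 1.29 and 1.37 in Lhx2 cKO.

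Gpc3, a glypican that binds Unc5 receptors, was at 6.10 and 6.68 CPM in control and 1.71 and 3.35 CPM in Lhx2 cKO. It had only 39 and 77 counts in Lhx2 cKO, and its value on the log2 scale, -1.33 with an SE of 0.278 (adjusted p 3.78e-04 in edgeR), ranged from -1.90 when Lhx2 cKO 2 was left out to -0.93 when Lhx2 cKO 1 was. Robo1, a Slit receptor that Flrt3 can bind, was at 162 and 177 CPM in control and 221 and 247 CPM in Lhx2 cKO (log2 fold change 0.46, adjusted p 3.97e-04). Fgfr1, a growth factor receptor that Flrt proteins also contact, was not called, at 0.07 on the log2 scale with a 95% interval of -0.13 to 0.26.

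**Figure D3:**
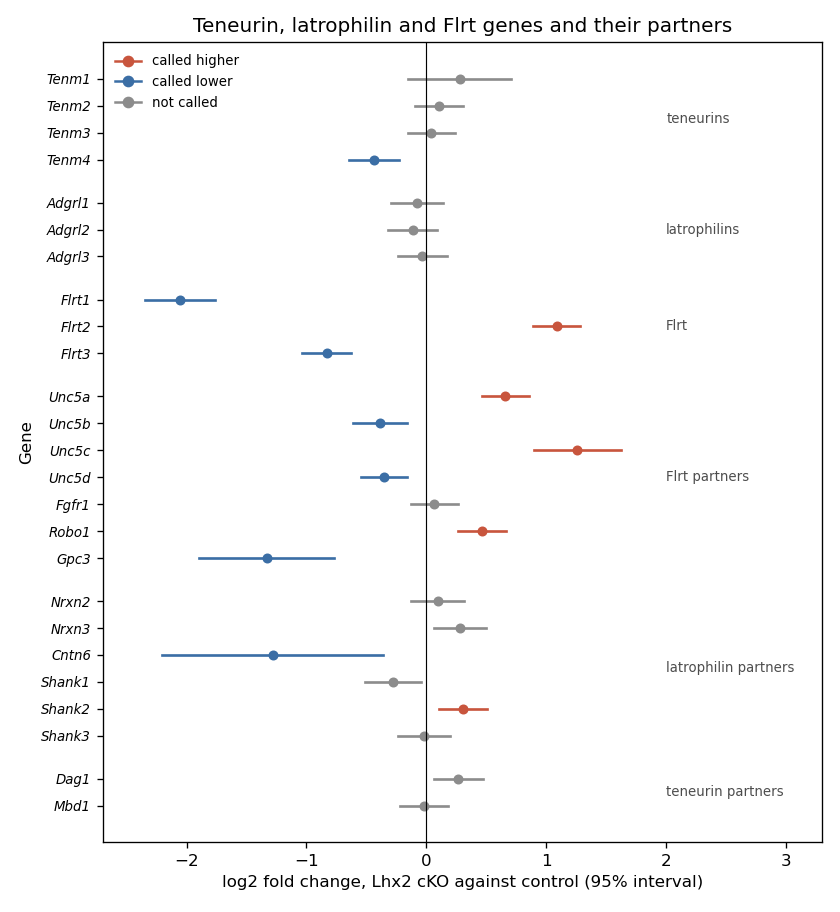
Log2 fold change between Lhx2 cKO and control for the 10 genes and 15 partner genes, with 95% intervals from the edgeR fit; colours mark genes called higher, called lower or not called. The 3 latrophilins straddle 0, while Flrt1, Flrt2 and Flrt3 and 4 Unc5 receptors lie on both sides of it.

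Of 6 latrophilin partners, 1 was called higher and 1 lower. Nrxn2 and Nrxn3, presynaptic neurexins, were not called in edgeR, at 0.10 and 0.28 on the log2 scale. Shank2, a postsynaptic scaffold, was called higher at 0.31 (adjusted p 0.0242), a call lost with DESeq2 (adjusted p 0.0511) and without any of control 1, control 2 or Lhx2 cKO 1 (adjusted p 0.0638, 0.12 and 0.193). Cntn6, a contactin, was called lower at -1.28 (adjusted p 0.0398), but it had 66 and 31 counts in control, and without control 1 it was at -0.63 with an adjusted p of 0.557. Its call was also lost without Lhx2 cKO 1 (adjusted p 0.114), without Lhx2 cKO 2 (adjusted p 0.128), with DESeq2 (adjusted p 0.108) and with limma-voom (adjusted p 0.0752). The teneurin partners Dag1, the dystroglycan gene, and Mbd1 were not called in edgeR, at 0.27 and -0.02 (adjusted p 0.0543 and 0.92). The unadjusted p of Dag1 was 0.0117. Among the called partner genes, Unc5a and Unc5c share exon bases with genes on the opposite strand in M21, and their values are uncertain if strand was not used.

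The wider families of these receptors were compared as lists, which were also chosen with earlier results of these data known. Among 14 other adhesion G protein-coupled receptors, 3 were called higher and 4 lower, against 11.6% and 9.17% of all genes tested. Their median log2 fold change was 0.11, against 0.003 over all genes tested. Celsr1, a planar polarity cadherin of progenitors, was at 367 and 375 CPM in control and 160 and 158 CPM in Lhx2 cKO (log2 fold change -1.22, adjusted p 5.01e-13 in edgeR). Celsr2 at -0.48, Adgrv1 at -0.62 and Adgrg1 at -0.38 on the log2 scale were also called lower. Adgrb2 at 0.47 and Adgrb3 at 0.63, which belong to the brain angiogenesis inhibitor group, were called higher.

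Adgrl4, the fourth gene of the latrophilin name series and a marker of blood vessels, was called higher as well. It was at 7.79 and 11.6 CPM in control and 13.6 and 22.0 CPM in Lhx2 cKO (log2 fold change 0.88, adjusted p 3.82e-04 in edgeR). Of the 7 endothelial markers, 5 were called higher, against 11.6% of all genes tested. Tek and Emcn were not called (adjusted p 0.12 and 0.26 in edgeR), and none of the 7 was at 0 counts. The summed level of the 7 was 135 to 168 CPM in control and 214 to 248 CPM in Lhx2 cKO. The part of endothelial cells in the value of Adgrl4 was not tested.

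Among 23 other leucine-rich repeat surface proteins of neurons, 11 were called higher and 0 lower in edgeR, against 11.6% and 9.17% of all genes tested. Their median log2 fold change was 0.41, against 0.003 over all genes tested, and their lowest value was -0.04. This list too was chosen with earlier results of these data known, so its counts describe it and do not test it. Lrrtm1 and Lrrtm2, which bind neurexins, were at 0.58 and 0.71, and Lrrc4c, a netrin-G ligand, was at 0.58. Lrfn2 at 0.84, Lrfn5 at 0.63, Slitrk3 at 0.44, Slitrk4 at 0.67, Slitrk5 at 0.63, Lingo1 at 0.59, Lrrn1 at 0.46 and Lrrn2 at 0.41 made up the rest of those called. Slitrk3 and Slitrk4 passed only narrowly (adjusted p 0.0432 and 0.0403 in edgeR). How far the 11 calls depend on a single library was not examined. Flrt2 was higher, as the called genes of this list were, whereas Flrt1 and Flrt3 were lower. Lrrtm2 shares exon bases with Ctnna1 on the opposite strand and Lrfn2 with Gm44304, a miRNA gene, and both values are uncertain if strand was not used.

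**Figure D4:**
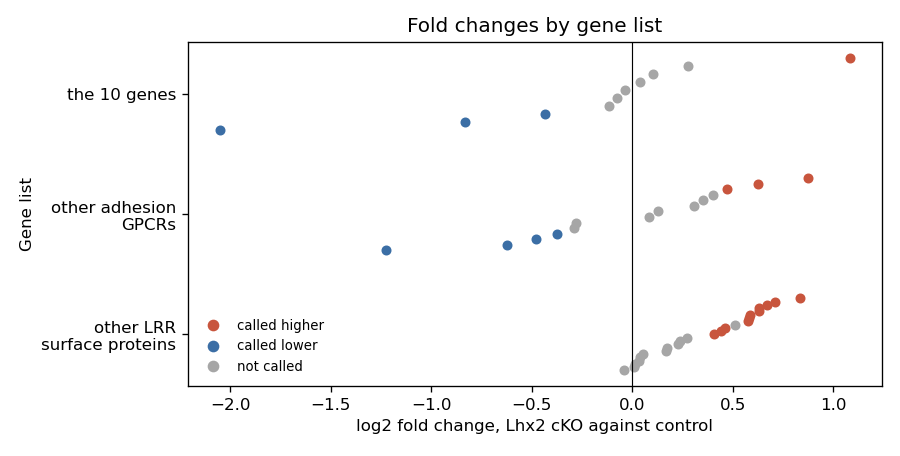
Log2 fold change of each gene in 3 lists: the 10 teneurin, latrophilin and Flrt genes, 14 other adhesion G protein-coupled receptors (GPCRs) and 23 other leucine-rich repeat (LRR) surface proteins. Within a list the vertical position only orders the genes; 11 of the 23 LRR genes are called higher and 0 lower.

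Markers of several cell types differed between the same libraries. The counts below stand beside 11.6% called higher and 9.17% called lower over all genes tested. In bulk tissue, fewer cells of a type and less RNA per cell cannot be told apart. The 5 intermediate progenitor markers summed to 628 to 630.3 CPM in control and 359 to 376 CPM in Lhx2 cKO, with 4 of 5 called lower, in the direction of Flrt1, Flrt3, Tenm4 and Unc5d. The 6 upper-layer markers summed to 1203 to 1282 CPM in control and 1106 to 1149 CPM in Lhx2 cKO, with 3 called lower and 1 higher. The 6 deep-layer markers had 1 called lower and the 6 pan-neuron markers 1 higher and 2 lower. All 3 red blood cell markers analysed here were called lower, with a median log2 fold change of -0.82. Their sums were 1539 and 1132 CPM in control against 949 and 820 CPM in Lhx2 cKO. Control 1 lay above control 2 in these sums, as it did for Flrt1 but also for Adgrl3 and Cntn6. In the direction of Flrt2, 4 of 6 Cajal-Retzius markers were called higher, and the 6 summed to 295 to 326 CPM in control and 447 to 570 CPM in Lhx2 cKO. Reln, which is also expressed outside Cajal-Retzius cells, made up most of that sum, at 261.5 and 287 CPM in control against 384 and 498.5 CPM in Lhx2 cKO. Of the 7 microglia markers 6 were called higher, with sums of 112 to 113 CPM in control and 223 to 249 CPM in Lhx2 cKO. Of the 5 oligodendrocyte precursor markers 4 were called higher, with sums of 20.3 to 22.4 CPM in control and 50.4 to 58.9 CPM in Lhx2 cKO. Sox10 was the one not called (adjusted p 0.374 in edgeR), and its groups overlapped. Egfr had the largest log2 fold change of the 5, at 2.80, with 2.02 and 1.88 CPM in control against 13.2 and 14.0 CPM in Lhx2 cKO. Of the 8 radial glia markers 1 was called higher and 2 lower, of the 7 interneuron markers 2 were called higher, and of the 4 mural and meningeal markers analysed here 2 were called lower. No marker of these lists was at 0 counts in any library. The part of these cell types in the Flrt, teneurin and Unc5 values was not tested.

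The authors' deposited table gave the same directions for the 4 called genes. In it the log2 fold change was -2.06 for Flrt1, 1.08 for Flrt2, -0.84 for Flrt3 and -0.44 for Tenm4. The authors' deposited adjusted p was 5.11e-37 for Flrt1, 1.56e-22 for Flrt2, 6.11e-13 for Flrt3 and 2.49e-04 for Tenm4, and it was between 0.445 and 0.887 for the other 6 members.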

How the data were processed

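Whole-number read counts per gene in 4 libraries were deposited by the authors in 1 table. Trim Galore, Subread, featureCounts and edgeR and the build mm39 are named in the submitters' processing notes; versions, annotation and use of strand are not given in the sources used here. The authors' log2 fold changes, p-values and adjusted p-values are identified by the file headers. The number of genes behind their adjustment is not stated and was inferred from the ratio of p-value to adjusted p-value. The best candidate was 15974 genes, which gave whole ranks for 94.6% of the rows checked (tolerance 0.02). The 13289 rows used here are 83.2% of that number. Gene lengths in bases were deposited without their annotation.

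Counts were tested with edgeR 4.0.16 in R 4.3.3 (TMM, filterByExpr with a minimum of 10 counts, quasi-likelihood test, two-sided, Benjamini-Hochberg over 13288 genes, threshold 0.05) without covariates. SEs are the absolute log2 fold change over the square root of F, and 95% intervals use the t distribution of the fit. Both rest mostly on variance pooled over genes (prior degrees of freedom 38.7). CPM are scaled with TMM over the rows used. Libraries of a group differed by more than sampling noise (a chi-square of their counts over its degrees of freedom was 13.9 in control and 14.3 in Lhx2 cKO) and were kept as separate replicates. Titles gave groups and replicates. All members, all called genes of the pathway lists and Lhx2 were named, apart from items not reported here, which were left out of the lists. Members and lists were chosen with earlier results of these data known. Alternatives were other scalings and filters, a replicate block, DESeq2 1.42.0, limma-voom (limma 3.58.1), a threshold of 0.01 and leaving out each library. Exon overlaps came from GENCODE M21 and promoters from RefSeq tables, both on GRCm38.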

Additional observations from a re-analysis of the deposited data

How the results depend on the processing

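Flrt1, Flrt3 and Tenm4 were called lower and Flrt2 higher under all 13 alternatives run, with log2 fold changes over those alternatives from -2.34 to -1.71 for Flrt1, -0.91 to -0.76 for Flrt3, -0.46 to -0.41 for Tenm4 and 0.99 to 1.17 for Flrt2. The other 6 members were called under none of them; with a library left out the estimate of Tenm3 ranged from -0.045 (without Lhx2 cKO 2) to 0.117 and that of Adgrl3 from -0.199 to 0.14 (without control 1), so the direction of either was not stable. Called genes over the whole table numbered 1697 at an adjusted p under 0.01, fewer by construction, and 1633 to 2396 with a library left out, the lowest without Lhx2 cKO 2 and 1790 without control 1; a group's lone library is then assumed to vary like the other group. Partner genes called numbered 5 at an adjusted p under 0.01, 5 (without Lhx2 cKO 1) to 9 with a library left out, 6 with DESeq2 and 7 to 10 otherwise. Whether equal replicate numbers mark a shared litter or batch is not stated. Deviations of replicate 1 from replicate 2 had a correlation of -0.01 between groups over all genes. With 1 such pair per group and noise in each gene, that value cannot exclude a shared litter or batch. The fit with the replicate block called 2874 genes, 1 member higher and 3 lower, and 9 partner genes, while Cntn6 lost its call (adjusted p 0.0515). At this depth Tenm1, Cntn6 and Gpc3 had the fewest counts among the genes named from these families and their partners.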
